A study of Mus musculus with 12 samples.

Results

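The core circadian clock was examined through 10 genes, *Arntl*, *Clock*, *Per1*, *Per2*, *Per3*, *Cry1*, *Cry2*, *Nr1d1*, *Nr1d2* and *Dbp*, which were picked by name as clock genes and direct clock outputs. Each had 1 row among the 21669 transcript names of every count table. The samples were left ventricular tissue of adult mice, either wild type (WT) or lacking *Rpl3l* (Rpl3l-/-, KO), a paralog of the ribosomal protein gene *Rpl3*. The labels give no sex, strain, exact age, deletion allele or time of day of collection, and no treatment of the animals. Ribosome footprints (ribosome-protected fragments, RPF) and polyadenylated RNA were sequenced, with 3 libraries per genotype in either assay and thus 12 altogether. RPF came from lysate digested with RNase I in the presence of cycloheximide, and RNA from the undigested lysate. The libraries are called here by genotype and label number, for example WT 1. The labels do not say that RNA and RPF libraries of the same number came from the same heart, nor that replicates came from separate animals. The p-values then measure only the spread between these samples, which may be technical.

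In the clock, ARNTL (BMAL1) and CLOCK form a dimer that binds E-box motifs and switches on the *Per*, *Cry*, *Nr1d* and *Dbp* genes. PER and CRY proteins return to the nucleus and block that dimer, and NR1D1 and NR1D2 (REV-ERB alpha and beta) repress *Arntl* through a motif called the RORE. In mouse peripheral organs, the heart among them, *Arntl* RNA is therefore known to be high when *Nr1d1*, *Dbp* and *Per3* RNA is low, and the reverse. A single tissue sample records the state of this cycle at the moment it was taken.

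RefSeq promoter windows (GRCm38.p6, 250 bases before to 50 after a start) were at hand for 9 of the 10 genes. They were searched on both strands for the E-box CACGTG, the D-box TTATGTAA or TTACGTAA (the motif of DBP and its relatives) and the RORE core TAGGTCA or TGGGTCA. No overlap of motifs was found in the stretches shown. A match was found for 4 of the 9 genes, and these are shown because each holds one of these motifs. Capitals mark the motifs, and each sequence runs 5′ to 3′ on the strand of its gene.
Arntl RORE, chr7:113207529-113207558, plus strand: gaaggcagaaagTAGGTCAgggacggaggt
Per1 E-box, chr11:69098736-69098835, plus strand: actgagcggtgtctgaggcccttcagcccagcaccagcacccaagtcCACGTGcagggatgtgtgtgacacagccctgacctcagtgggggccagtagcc
Cry1 E-box, chr10:85185062-85185161, minus strand: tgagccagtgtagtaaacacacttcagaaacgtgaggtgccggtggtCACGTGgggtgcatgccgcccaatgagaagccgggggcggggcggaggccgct
Per3 D-box, chr4:151044794-151044893, minus strand: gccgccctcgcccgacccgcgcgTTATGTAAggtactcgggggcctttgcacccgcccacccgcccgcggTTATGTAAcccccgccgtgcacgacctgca
The E-box of *Per1* began 166 bases and that of *Cry1* 60 bases before the start, and the D-boxes of *Per3* began 205 and 158 bases before it. Of all 32851 promoter windows of that length, 7.15% held the E-box, 1.06% a D-box and 6.45% the RORE core. A match describes the letters only. The other 5 windowed genes held none of these letters in this window.

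The libraries held between 3827862 and 7474602 counts in RPF and between 6635242 and 8459004 in RNA. The mitochondrial share was 49.8% to 58.2% in RNA and 2.28% to 5.22% in footprints. The clock genes together had 316 to 905 RNA counts in a library, against 1500 to 3176 footprint counts. CPM values are counts scaled to a common library total, after TMM normalisation within an assay. Intervals given with single libraries are exact Poisson or binomial 95% intervals that cover counting error only. A count of 3, taken as the floor of detection, corresponds to 0.355 to 0.452 CPM of the raw total in RNA and to between 0.401 and 0.784 in RPF. *Rpl3l* itself had 2726 to 3329 RNA counts in WT and 276 to 442 in KO, and 937 to 1108 against 30 to 65 footprint counts. Along the first principal component, RPF WT 1 lay apart from the other 5 RPF libraries (score -64.1 against 8.77 to 15.3), while RPF KO 3 did not. The first component of RNA put WT 3, KO 1 and KO 3 on one side and WT 1, WT 2 and KO 2 on the other, a split that follows neither the genotype nor the order of the clock genes given next. Of 6 cardiomyocyte markers (*Myh6*, *Actc1*, *Tnnt2*, *Tnni3*, *Myl2* and *Ryr2*), none was at 0, and their summed level was between 38930 and 53895 CPM in RNA.

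The clock genes differed between libraries of the same genotype, and 2 libraries stood at one end. In both assays, WT 1 and KO 3 had the most *Arntl* and the least *Dbp*, although they belong to different genotypes. *Arntl* (chromosome 7 from 113207557 to 113314126, plus strand, GRCm38, 21 exons), the partner of CLOCK, had 34, 8 and 4 RNA counts in WT 1 to 3 and 16, 4 and 43 in KO 1 to 3. These counts are 4.87, 1.04 and 0.419 CPM in WT and 2.36, 0.599 and 4.35 CPM in KO. Its footprints were at 11.1, 5.01 and 4.65 CPM in WT and 4.58, 2.93 and 13.2 CPM in KO. Thus WT 1 and KO 3 were the 2 highest libraries in either assay, and the remaining RPF libraries all lay at 5.01 CPM or below.

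*Dbp* (chromosome 7 from 45705088 to 45710203, plus strand, 4 exons) encodes a transcription factor that binds D-boxes and is a standard read-out of the clock. It gave 8.03, 31.3 and 37.6 CPM in RNA of WT 1 to 3, and 18.6, 40.4 and 12.8 CPM in KO 1 to 3. Footprints of *Dbp* stood at 22.4, 69.6 and 88.8 CPM in WT and 53.1, 78.9 and 20.1 CPM in KO. Here WT 1 and KO 3 were the 2 lowest libraries, and KO 1 came next in both assays. The lowest RNA library (WT 1, interval 6.06 to 10.4 CPM) and the highest (KO 2, interval 35.8 to 45.6 CPM) differed 5.04-fold. In footprints the highest library was 4.41 times the lowest.

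The balance of the pair within a library does not depend on scaling. *Arntl* made up 37.8% of the summed *Arntl* and *Dbp* RNA counts in WT 1 (exact binomial 95% interval 27.8% to 48.6%), 3.21% in WT 2 (1.40% to 6.23%) and 1.10% in WT 3 (0.301% to 2.80%). In KO RNA the share was 11.3% in KO 1 (6.58% to 17.7%), 1.46% in KO 2 (0.399% to 3.70%) and 25.4% in KO 3 (19.1% to 32.7%). Footprints gave 33.1% (26.0% to 40.9%), 6.71% and 4.98% in WT 1 to 3, and 7.94%, 3.58% and 39.6% (32.0% to 47.7%) in KO 1 to 3. In RNA the order from high to low was WT 1, KO 3, KO 1, WT 2, KO 2 and WT 3, and in footprints KO 3, WT 1, KO 1, WT 2, WT 3 and KO 2. Only neighbours in these orders changed places between the assays, and KO 1 followed the top pair in both. In either assay the intervals of WT 1 and KO 3 overlapped each other and no other interval. The KO 1 interval also stood clear of the remaining libraries in RNA, whereas in footprints (5.56% to 10.9%) it overlapped those of WT 2 and WT 3.

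**Figure D1:**
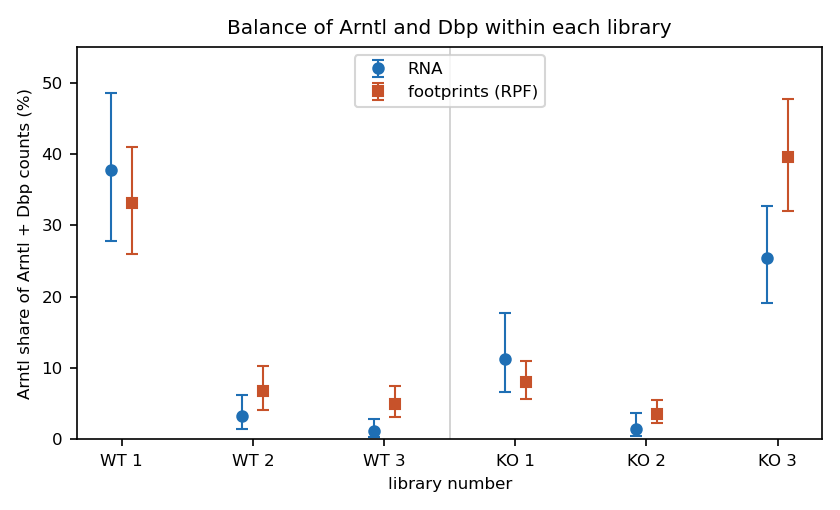
Share of *Arntl* in the summed counts of *Arntl* and *Dbp* (%, vertical axis) in each library (horizontal axis), with RNA as blue circles, footprints as orange squares and exact binomial 95% intervals as bars. WT 1 and KO 3 sit between 25.4% and 39.6%, and the other 4 libraries of each assay at 11.3% or below.

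The REV-ERB genes lay on the side of *Dbp*, *Nr1d1* with a much narrower span. *Nr1d1* (chromosome 11 from 98767932 to 98775333, minus strand, 8 exons) was the most deeply counted clock gene. Its RNA level was 25.4, 29.6 and 41.3 CPM in WT 1 to 3 and 33.4, 36.2 and 29.2 CPM in KO 1 to 3. In footprints *Nr1d1* stood at 160, 227 and 211 CPM in WT and 191, 199 and 164 CPM in KO. WT 1 and KO 3 were again lowest in both assays, and in footprints their intervals (149 to 172 and 153 to 176 CPM) lay below those of the other 4 libraries, the lowest of which began at 181 CPM. In RNA the interval of KO 3 (25.9 to 32.7 CPM) overlapped that of WT 2 (25.9 to 33.7 CPM). The span of *Nr1d1* was small, 1.63-fold in RNA and 1.42-fold in footprints.

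*Nr1d2* (chromosome 14 from 18204054 to 18239127, minus strand, 8 exons) had fewer RNA counts, 7, 31 and 29 in WT and 15, 22 and 19 in KO. Its RNA level was therefore lowest in WT 1 (1.00 CPM) and next lowest in KO 3 (1.92 CPM), against 2.22 to 4.03 CPM elsewhere. Footprints of *Nr1d2* gave 18.1, 28.2 and 45.3 CPM in WT and 41.4, 61.4 and 29.97 CPM in KO. In this gene WT 2, at 28.2 CPM, was the second lowest footprint library, but its interval (23.1 to 34.1 CPM) overlapped that of KO 3 (25.3 to 35.3 CPM). The WT 2 interval lay below that of KO 1 (36.9 to 46.3 CPM), whereas *Dbp* footprints were higher in WT 2 than in KO 1. In that respect the footprint order of *Nr1d2* departed from that of *Dbp*.

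The *Per* genes encode the repressor proteins that pair with the cryptochromes. *Per1* (chromosome 11 from 69098948 to 69109960, plus strand, 23 exons), which also responds quickly to hormones and other stimuli, had 2.44, 6.88 and 6.18 CPM in WT RNA and 6.65, 7.79 and 3.85 CPM in KO RNA. The lowest RNA libraries of *Per1* were WT 1 and KO 3. Its footprints were at 51.8, 63.0 and 45.7 CPM in WT and 52.7, 44.0 and 22.2 CPM in KO. Only KO 3 was low there: its interval of 18.2 to 26.9 CPM lay below all others, while WT 1 was in the middle of the range.

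*Per2* (chromosome 1 from 91415982 to 91459324, minus strand, 23 exons) had 1, 8 and 23 RNA counts in WT and 5, 8 and 3 in KO. *Per2* footprints numbered 24, 28 and 66 for WT 1 to 3, and 50, 65 and 6 for KO 1 to 3. Those are 4.94, 7.38 and 14.0 CPM in WT and 6.74, 9.53 and 1.26 CPM in KO, an 11.1-fold span, the widest of the 10 genes in footprints. The KO 3 interval (0.461 to 2.74 CPM) lay below the interval of every other library. WT 1, the second lowest, had an interval of 3.16 to 7.35 CPM that overlapped those of WT 2 and KO 1.

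*Per3* (chromosome 4 from 151003652 to 151044665, minus strand, 21 exons), whose promoter carried the pair of D-boxes shown above, had 2, 9 and 13 RNA counts in WT and 5, 9 and 6 in KO. Its footprints were at 4.73, 6.06 and 8.88 CPM in WT and 10.2, 7.18 and 4.82 CPM in KO. Both assays were again lowest in WT 1 and KO 3, but the intervals of all 6 RNA libraries of *Per3* overlapped, and the footprint span was 2.16-fold.

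The remaining genes of the loop behaved less uniformly. *Clock* (chromosome 5 from 76209868 to 76304792, minus strand, 23 exons), the other partner in the activating dimer, had 15, 5 and 4 RNA counts in WT and 8, 6 and 9 in KO. Its footprints gave 20.4, 8.96 and 14.4 CPM in WT and 10.6, 16.7 and 17.2 CPM in KO, with WT 1 and KO 3 highest and KO 2 close behind. *Cry1* (chromosome 10 from 85131700 to 85185064, minus strand, 13 exons), a repressor that peaks later than the other E-box genes, had 6, 5 and 16 RNA counts in WT and 15, 7 and 15 in KO. In footprints *Cry1* reached 16.9, 7.38 and 8.25 CPM in WT and 14.4, 9.24 and 12.8 CPM in KO. Libraries WT 1, KO 1 and KO 3 were its 3 highest footprint libraries, which sets *Cry1* on the side of *Arntl* rather than of *Dbp*, whereas the *Cry1* RNA counts showed no such order.

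*Cry2* (chromosome 2 from 92403646 to 92434043, minus strand, 12 exons), the other cryptochrome, had only 1, 4 and 4 RNA counts in WT and 2, 2 and 1 in KO, at or near the floor of detection. Its footprints were plentiful, at 23.2, 54.6 and 39.5 CPM in WT and 32.2, 36.4 and 28.7 CPM in KO. The lowest footprint libraries were again WT 1 and KO 3. Over all libraries *Cry2* had 1131 footprint and 14 RNA counts, a ratio of 80.8. The same ratio was between 1.55 for *Dbp* and 10.4 for *Nr1d2* in the other 9 clock genes, and the median of the 8044 genes tested in both assays was 2.24. The sources used here do not state which part of a transcript was counted, and its part in this ratio was not tested.

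**Figure D2:**
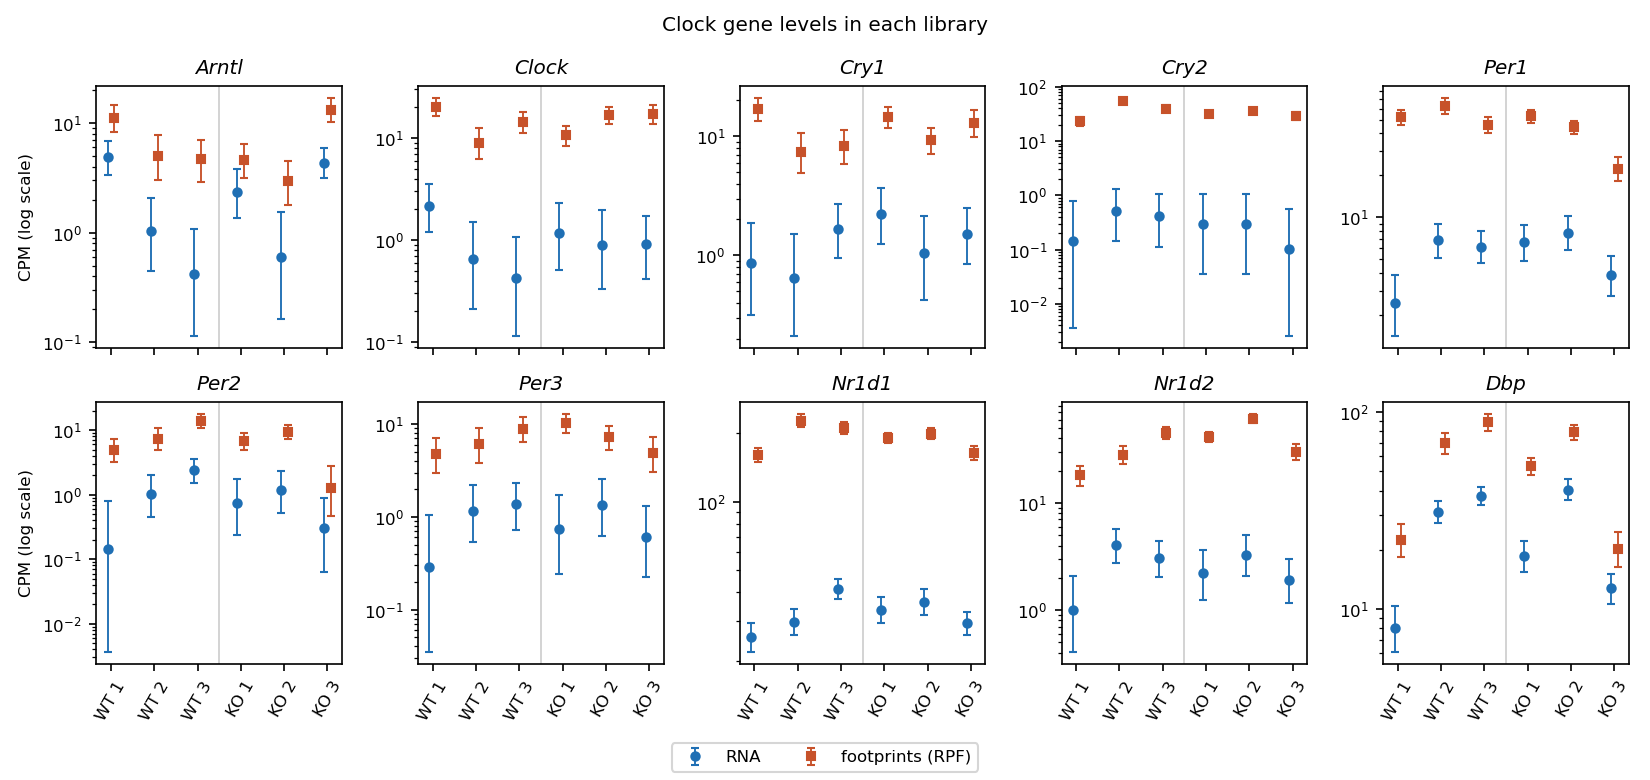
Level of each clock gene in CPM (vertical axes, log scale) by library (horizontal axes), with RNA as blue circles, footprints as orange squares and exact Poisson 95% intervals as bars. *Arntl* is highest and *Dbp* lowest in WT 1 and KO 3 in both assays, and the *Per2* footprint level of KO 3 is 1.26 CPM.

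Counted over the 10 genes, WT 1 and KO 3 were the 2 lowest RNA libraries for 7 (*Per1*, *Per2*, *Per3*, *Cry2*, *Nr1d1*, *Nr1d2* and *Dbp*) and the 2 highest for 1 (*Arntl*). Over the 8379 genes that passed the filter on low counts in RNA, this pair was lowest for 4.03% and highest for 4.21%. Of the clock genes 6 passed that filter in RNA, and of these WT 1 and KO 3 were the lowest pair for 4 and the highest for 1. In footprints, where all 10 clock genes passed, the pair was lowest for 5 (*Per2*, *Per3*, *Cry2*, *Nr1d1* and *Dbp*) and highest for 2 (*Arntl* and *Clock*). Among all 11153 genes tested in footprints the pair was lowest for 7.27% and highest for 6.82%. The pair was singled out after the clock values were seen, so these counts are a description.

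Red blood cell transcripts moved with the same libraries. The summed level of *Hba-a1*, *Hbb-bs* and *Alas2* in RNA was 1523, 2676 and 3306 CPM in WT 1 to 3 and 4022, 3070 and 999.8 CPM in KO 1 to 3, so that WT 1 and KO 3 were lowest. In footprints the sum was 241, 603 and 967 CPM in WT and 1080, 711 and 434 CPM in KO, again lowest in WT 1 and KO 3. None of the 3 markers was at 0 in the series, and the part of blood content in the clock values was not tested. In such bulk tissue, fewer cells of a type and less RNA per cell cannot be told apart. Adipocyte markers (*Adipoq*, *Plin1*, *Lep* and *Ucp1*) were instead high in RNA of WT 2 and KO 2, with sums of 89.1 and 82.5 CPM against 8.17 to 14.8 CPM in the other libraries, and *Lep* was at 0 in RNA throughout. In that list WT 1 and KO 3 did not stand together at one end of the RNA libraries. The fibroblast sum (*Col1a1*, *Col3a1*, *Dcn* and *Pdgfra*) was highest in RNA of KO 3 and WT 1, by a small margin (321 and 296 CPM, others 243 to 293 CPM), and not in footprints. Sums of endothelial, macrophage and atrial markers did not have these libraries together at an end in either assay.

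The spread within a genotype was large for several clock genes when set beside all genes. The biological coefficient of variation (BCV), edgeR's estimate of variation between libraries of a genotype beyond counting error, was 0.648 for *Arntl* and 0.443 for *Dbp* in RNA. Only 8 and 53 of the 8379 genes tested had a larger value, and the median gene had 0.193. *Nr1d2* (0.324) and *Per1* (0.305) lay at the 94.1 and 91.7 percentiles of all genes and *Cry1* (0.264) at 83.3, and *Nr1d1* (0.192) was at the level of the median gene. The RNA trend at the expression level of each gene was 0.238 for *Arntl*, 0.195 for *Dbp*, 0.233 for *Nr1d2* and 0.211 for *Per1*. It was 0.247 for *Cry1* and 0.197 for *Nr1d1*, so these 2 genes lay close to it. In footprints the BCV was 0.460 for *Per2*, 0.446 for *Arntl* and 0.366 for *Dbp*, against a median of 0.220, and values rose towards weakly counted genes. At its own expression level *Dbp* had a trend value of 0.172 in footprints, while the trend was 0.341 for *Per2* and 0.352 for *Arntl*. The *Nr1d1* footprints varied little, with a BCV of 0.151. The log2 CPM range over the 6 libraries was at least 1 for 5 of the 6 clock genes tested in RNA, against 34.0% of all genes tested, and for 9 of 10 in footprints, against 39.3%. These shares were not matched for expression level.

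**Figure D3:**
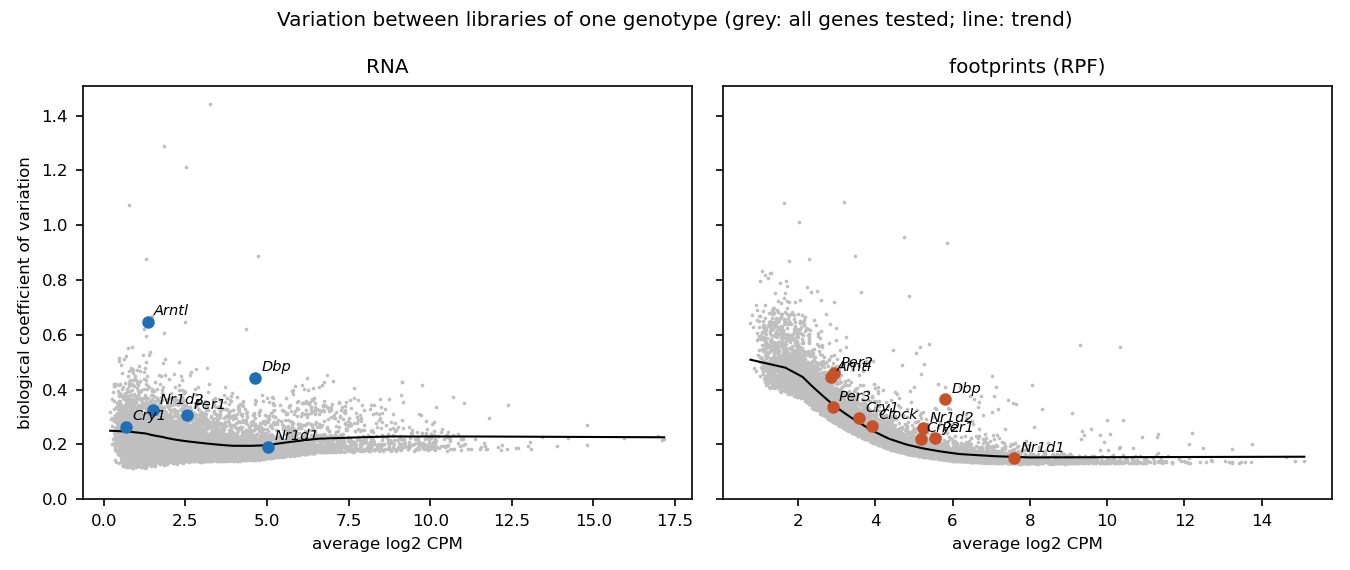
Biological coefficient of variation (vertical axes) against average log2 CPM (horizontal axes) for all genes tested in RNA (left) and footprints (right), as grey points with the fitted trend as a line and the clock genes as coloured, named points. *Arntl* (0.648) and *Dbp* (0.443) stand high above the trend in RNA, and *Nr1d1* lies close to it in both assays.

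Against this spread, the clock genes did not separate the genotypes. By edgeR's quasi-likelihood test, 0 of the 6 clock genes tested in RNA passed the adjusted threshold of 0.05, and 0 reached an unadjusted p of 0.05. Across all genes 0.0119% were called in RNA at the adjusted threshold, which is *Rpl3l* alone, and 2.54% had an unadjusted p below 0.05. In footprints the counts were 0 of 10 at either threshold, against 0.00897% and 5.96% of all genes. WT and KO libraries overlapped for all 10 clock genes in both assays. Such overlap was usual, as only 7.33% of all genes tested in RNA and 12% in footprints showed none. Of the 10, *Clock*, *Per2*, *Per3* and *Cry2* did not pass the filter in RNA. DESeq2 called 0 of these clock genes as well.

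Mean *Dbp* RNA was 25.6 ± 16 CPM for WT and 23.9 ± 15 CPM for KO (SD, n = 3 libraries each). The difference as a log2 fold change of KO over WT came to -0.12 (SE 0.52) in RNA and -0.24 (SE 0.43) in footprints (edgeR adjusted p = 0.999 and 0.965). Mean *Arntl* RNA was 2.11 ± 2.4 CPM for WT against 2.44 ± 1.9 CPM for KO (SD, n = 3 each), with a log2 fold change of 0.35 (SE 0.79). Which library was left out decided the sign: without KO 3 the *Arntl* RNA value was -0.44, and without WT 1 it was 1.84. For *Dbp* RNA it was -0.73 without KO 2 and 0.26 without WT 3. *Nr1d1*, with the smallest spread, bounded the genotype difference best, at 0.03 (SE 0.20) in RNA and -0.11 (SE 0.15) in footprints.

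Footprint differences of the other genes were likewise within the spread. Mean *Nr1d2* footprints were 30.5 ± 14 CPM for WT against 44.3 ± 16 CPM for KO (SD, n = 3 each), a log2 fold change of 0.54 (SE 0.30) with the lowest p of the 10 genes (edgeR unadjusted p = 0.0934, adjusted p = 0.835). *Per2* (-0.56, SE 0.57), *Per1* (-0.42, SE 0.25) and *Cry2* (-0.26, SE 0.26) had lower fitted footprint values in KO. *Per3* (0.19, SE 0.43), *Cry1* (0.16, SE 0.36), *Clock* (0.01, SE 0.32) and *Arntl* (-0.04, SE 0.55) lay near 0. Without KO 3 the *Per1* footprint value was -0.14 and that of *Per2* -0.10, and without WT 3 that of *Per2* was -0.04. Leaving out WT 1, the footprint library that stood apart, gave 0.48 for *Arntl*, -0.63 for *Dbp* and 0.27 for *Nr1d2*. The median absolute log2 fold change was 0.21 over the 10 clock genes and 0.20 over all genes tested in footprints, while the median SE was 0.34 against 0.26.

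Translational efficiency (TE, footprints relative to RNA) could be tested for 6 clock genes as the interaction of assay and genotype. At an adjusted p below 0.05, 0 of the 6 and 0% of all 8044 genes were called by edgeR, and 0 of the 6 had an unadjusted p below 0.05, against 3.73% of all genes. The largest fitted TE values were those of *Nr1d2* (log2 fold change 0.73, SE 0.61) and *Per1* (-0.60, SE 0.51), both with an adjusted p of 0.9997. The median SE in TE was 0.62 over these genes and 0.37 over all genes.

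**Figure D4:**
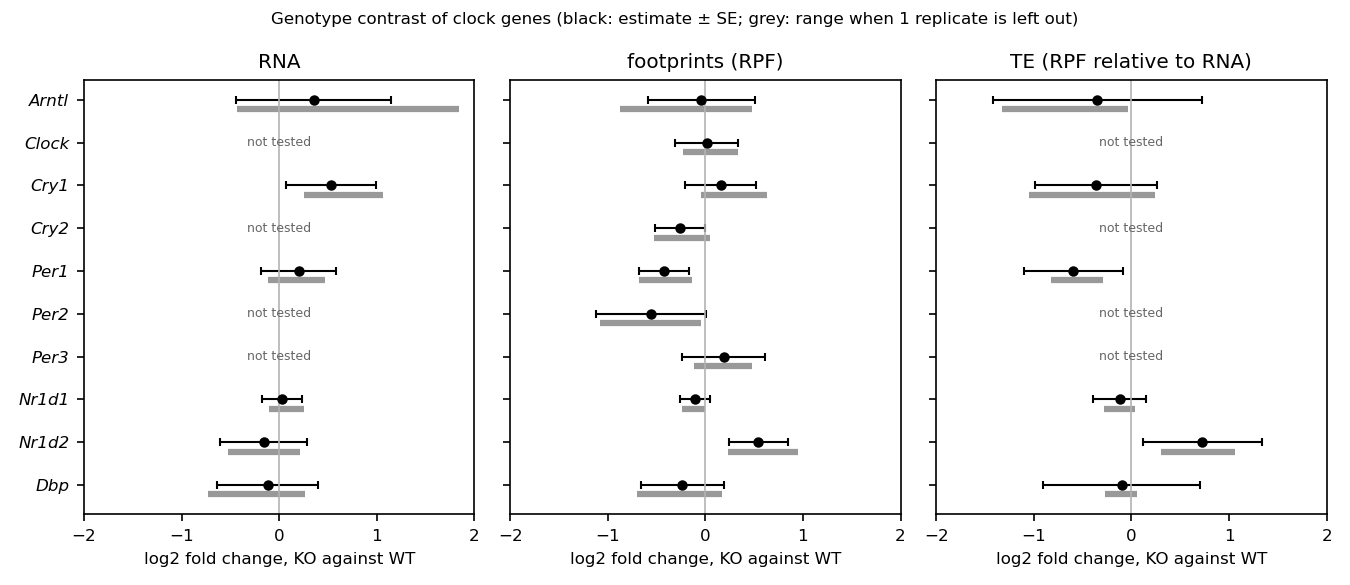
Log2 fold change, KO against WT (horizontal axes), of each clock gene (rows) in RNA, footprints and TE, with edgeR estimates ± SE in black and the range of the estimates when 1 replicate is left out in grey. Most ranges cross 0, and the *Arntl* RNA estimate runs from -0.44 to 1.84.

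A wider list of 20 further clock components and outputs held 12 genes tested in RNA and 16 in footprints, and 0 of them were called in either assay, up or down. In RNA 0 and in footprints 1 had an unadjusted p below 0.05 in edgeR's test. The one was *Tef*, a relative of *Dbp*, with a footprint log2 fold change of -0.52 (SE 0.24, adjusted p = 0.834). Their median log2 fold change was 0.03 in RNA and -0.19 in footprints, against -0.01 and 0.00 over all genes. In TE, 12 were tested, 0 were called and 1, *Timeless*, had an unadjusted p below 0.05, with a median log2 fold change of -0.22 against 0.01 over all genes.

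*Timeless*, named after its values were seen, was the one gene tested of this list whose genotypes did not overlap, in RNA (7.33% of all genes) and in footprints (12%). Its RNA stood at 4.87, 6.49 and 5.87 CPM in WT and 7.09, 8.09 and 6.99 CPM in KO. Its footprints gave 5.35, 5.01 and 6.34 CPM in WT and 3.91, 2.05 and 3.14 CPM in KO, from 14 to 30 counts a library. KO libraries thus lay above WT in RNA and below WT in footprints. The log2 fold change was 0.36 (SE 0.21) in RNA, -0.87 (SE 0.52) in footprints and -1.21 (SE 0.41) in TE, and edgeR's adjusted p was 0.999, 0.849 and 0.9997, so none was called. The unadjusted edgeR p in TE was 0.0090, and 3.73% of all genes tested in TE had one below 0.05.

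For 7 of the 16 wider-list genes tested in footprints (*Tef*, *Ciart*, *Bhlhe40*, *Bhlhe41*, *Usp2*, *Wee1* and *Klf15*), the lowest footprint libraries were WT 1 and KO 3. This is 43.8%, against 7.27% of all genes tested, for a pair singled out after the clock values were seen. RPF WT 1 also lay apart along the first principal component. Some of these orders were near ties. *Klf15* footprints were at 26.7 CPM in WT 1 and 26.8 CPM in KO 1, and *Wee1* footprints at 7.96 CPM in KO 3 and 8.22 CPM in KO 1. In RNA these libraries were the lowest pair for 1 of 12, *Tef*, and the highest pair for 1, *Nfil3*.

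*Ciart*, a repressor of the ARNTL and CLOCK dimer, had the widest RNA range of the list among genes with a mean of at least 10 RNA counts. Its footprints numbered 5, 41 and 61 for WT 1 to 3, and 61, 54 and 12 for KO 1 to 3, with WT 1 and KO 3 far below the rest. The RNA of *Ciart* gave 48, 79 and 36 counts in WT and 39, 76 and 26 in KO, so the low WT 1 value was seen in footprints alone. *Nfil3*, which competes with DBP for D-boxes and is known to cycle opposite to it, stood at 7.31, 4.55 and 3.67 CPM in WT RNA and 4.28, 2.995 and 7.69 CPM in KO RNA, highest in KO 3 and WT 1. In footprints *Nfil3* reached 22.01, 7.91 and 8.88 CPM in WT and 14.0, 6.30 and 12.6 CPM in KO. *Usp2*, a ubiquitin protease under clock control, had its lowest footprint levels in KO 3 (59.5 CPM) and WT 1 (75.9 CPM), against 92.6 to 129 CPM elsewhere. *Tef* footprints were likewise lowest in KO 3 (31.2 CPM) and WT 1 (45.5 CPM), with 49.7 to 82.0 CPM in the others. The *Tef* footprint interval of WT 1 (39.7 to 51.9 CPM) overlapped that of KO 2 (44.6 to 55.3 CPM).

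The other genes named by range were less regular. *Bhlhe40*, a repressor at E-boxes, was lowest in footprints of WT 1 (89.9 CPM) and KO 3 (91.4 CPM), with 106 to 155 CPM in the others. *Cipc*, an inhibitor of CLOCK, and *Csnk1d*, a kinase of the PER proteins, had wide RNA ranges (1.78 and 1.72 on the log2 scale). Their footprint ranges were narrow (0.54 and 0.53). Their mean counts were only 11.3 and 22.2 in RNA, against 173 and 332 in footprints. Counting error is thus larger in RNA, and its part in these ranges was not tested. The RNA BCV was 0.289 for *Cipc* and 0.324 for *Csnk1d*, with trend values of 0.247 and 0.231. *Npas2*, which can take the place of CLOCK, was chosen after its values were seen. It had 36, 3 and 6 footprint counts in WT and 2, 10 and 16 in KO, with WT 1 and KO 3 highest.

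Of 719 further genes with a mean of at least 50 RNA counts and a log2 range of at least 1, those most like *Dbp* over the 6 RNA libraries were *Slfn2* (Pearson r 0.94), *Tspan4* (0.94), *Tcap* (0.90), *Cyp2e1* (0.87) and *Gstt2* (0.82). The most opposite were *Arhgef19* (-0.85), *Gngt2* (-0.84), *Emcn* (-0.81), *Ptgds* (-0.79) and *Rrnad1* (-0.76). These values describe 6 libraries that share scaling and depth, were picked as the extremes of 719, and carry no test. For comparison, the RNA values of the other clock genes with *Dbp* were 0.99 (*Per3*), 0.94 (*Per2*), 0.93 (*Nr1d2*), 0.91 (*Per1*), 0.82 (*Nr1d1*) and 0.81 (*Cry2*). *Cry1* was at -0.006, *Clock* at -0.82 and *Arntl* at -0.97. Of these only *Nr1d1* had a mean of at least 50 RNA counts, and its log2 range was 0.70. *Tcap*, which encodes the Z-disc protein telethonin, had 824, 1278 and 1288 CPM in WT RNA and 931, 1587 and 688 CPM in KO RNA. Its footprints gave 1202, 2066 and 1975 CPM in WT and 1653, 1677 and 1122 CPM in KO, lowest in KO 3 and WT 1 as in RNA. *Tspan4*, a tetraspanin gene, was lowest in the same libraries, with 5.45 CPM in WT 1 and 7.49 CPM in KO 3 against 8.86 to 14.1 CPM in RNA.

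Because *Per1* also answers to acute stimuli, 2 further lists were read. Of 9 immediate-early genes 5 were tested in RNA and 7 in footprints, and 0 were called by edgeR or had an unadjusted p below 0.05. Their summed RNA level was 19.1, 14.7 and 31.7 CPM in WT 1 to 3 and 24.2, 21.4 and 32.6 CPM in KO 1 to 3, highest in KO 3 and WT 3. In footprints *Egr1*, a zinc-finger factor of this list, stood at 46.3, 22.9 and 27.9 CPM in WT and 45.005, 28.0 and 62.7 CPM in KO, highest in KO 3 and WT 1 with KO 1 close to WT 1. *Dusp1*, a phosphatase gene of this list, had 20, 12 and 69 RNA counts in WT and 37, 19 and 76 in KO, while *Atf3* and *Egr1* had at most 6 and 8. Of this list only *Atf3* had genotypes that did not overlap in footprints, against 12% of all genes tested. It had 11, 2 and 11 footprint counts in WT and 39, 18 and 15 in KO (log2 fold change 1.08, SE 0.69, edgeR adjusted p = 0.853). Of 10 genes that respond to glucocorticoids or temperature, 7 were tested in RNA and 8 in footprints and 0 were called, with 1 (*Zbtb16*, log2 fold change -1.19, SE 0.39, edgeR adjusted p = 0.999) at an unadjusted p below 0.05 in RNA and 0 in footprints. *Sgk1*, induced by glucocorticoids, had 5, 9 and 30 RNA counts in WT and 37, 14 and 31 in KO. *Zbtb16* had 63, 121 and 62 in WT and 24, 47 and 32 in KO. In CPM the genotypes of *Zbtb16* overlapped, with 6.50 in WT 3 and 7.04 in KO 2. *Hspa1b* had 4 counts in KO 2 and 0 in the other RNA libraries. The summed level of the list was lowest in KO 1 in RNA (128 CPM, others 131 to 169 CPM). In footprints it was lowest in WT 1 and KO 3 (438 and 528 CPM, others 541 to 676 CPM). *Mt1* alone gave 165 to 265 CPM of the footprint sum, so the sum leans on that gene. The part of these 2 lists in the clock values was not tested.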

How the data were processed

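The authors deposited unnormalised read counts for each transcript name. Per the submitters' processing notes, cutadapt 1.18 and Bowtie2 2.4.2 were used. The counting program, genome build, region counted, strand use and treatment of reads that match several places are not given in the sources used here. Of 21669 names, 21425 matched GENCODE M21 (GRCm38), from which gene positions were taken.

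RNA and RPF were each fitted over 6 libraries with a genotype term, and TE over 12 libraries as the assay by genotype interaction, with edgeR 4.0.16 in R 4.3.3 (filterByExpr with a minimum count of 10, TMM, quasi-likelihood test, Benjamini-Hochberg over all genes, threshold 0.05). Log2 CPM used a prior count of 2. Fits were tested on simulated data. Alternatives were median-of-ratios scaling, DESeq2 1.42.0, no filter, a replicate block, a prior count of 0.5 and leaving out each replicate. The block was the replicate number in RNA and RPF, and genotype with replicate number in TE.

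The genes and lists were chosen with earlier results of these data known. The genes named were all 10 clock genes, the up to 8 wider clock genes of largest RNA range with a mean of at least 10 counts, the 5 most and 5 least like *Dbp*, and up to 3 of largest range in each stimulus list. Exceptions are stated, and 1 of the wider clock genes is not reported here. Library depths are given with the results.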

Additional observations from a re-analysis of the deposited data

How the results depend on the processing

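Under every alternative run, 0 clock genes were called in RNA, RPF or TE, and the lowest adjusted p of a clock gene was 0.5005. No sign of a clock gene changed under scaling, DESeq2, no filter or a replicate block. Of 22 fold changes, 14 changed sign in at least 1 fit that left out a replicate. Those log2 ranges in RNA were -0.44 to 1.84 for *Arntl*, -0.12 to 0.46 for *Per1*, -0.11 to 0.26 for *Nr1d1*, -0.52 to 0.21 for *Nr1d2* and -0.73 to 0.26 for *Dbp*. In RPF they were -0.88 to 0.48 for *Arntl*, -0.23 to 0.33 for *Clock*, -0.12 to 0.48 for *Per3*, -0.047 to 0.63 for *Cry1*, -0.53 to 0.052 for *Cry2* and -0.70 to 0.17 for *Dbp*. In TE they were -1.05 to 0.24 for *Cry1*, -0.28 to 0.033 for *Nr1d1* and -0.27 to 0.059 for *Dbp*. Over all genes, the count called rose without a filter from 1 to 4 in RNA, from 1 to 60 in RPF and from 0 to 3 in TE, was 5 in RPF and 1 in TE with DESeq2, and lay between 1 and 2 in the RPF fits with a replicate omitted. The cause was not tested. With the replicate number as a block it was 1 in RNA, 4 in RPF and 0 in TE. Deviations of same-numbered WT and KO libraries correlated at -0.18, 0.33 and 0.39 in RNA and at 0.06, 0.03 and 0.01 in RPF. So few and mixed values cannot tell whether the numbers pair the genotypes. Within a genotype, all 6 RNA libraries correlated best with the RPF library of their own number (0.08 to 0.15), a hint from the data, not the design. With a prior count of 0.5 the log2 range of *Cry2* in RNA was 1.83, and the other 39 of 40 ranges and all 24 values of *Arntl* minus *Dbp* moved by less than 1 SD. The RNA counts of *Per2*, *Per3*, *Clock* and *Cry2* limit what RNA can show for them.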
